A study of Saccharomyces cerevisiae with 6 samples.

Results

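The 31 genes that encode the subunits of the nuclear RNA polymerases I, II and III of budding yeast, Saccharomyces cerevisiae, were followed through a short digestion of the cell wall. The genes were taken by name from the known composition of the 3 enzymes, and the probe set of a gene was chosen by its mean signal over all 6 arrays, the brightest standing for the gene. Each gene turned out to have exactly 1 probe set, so the signal decided nothing, and all 31 passed the filter on dim signals, among 5349 genes measured on 5394 probe sets. The genes divide into 5 subunits carried by all 3 enzymes, 2 carried by polymerases I and III, 7 found only in polymerase I, 7 only in polymerase II and 10 only in polymerase III. In the study, the treated group received zymolyase, an enzyme mixture that digests wall glucan, at 30 U/ml and was kept at 37 °C for 10 min, whereas the control group was left untreated. Each group held 3 samples, each on its own Affymetrix array, all of the strain labelled BY4743 and grown in the rich medium YPD at 25 °C for 2 days. BY4743 is given as an a/α diploid with his3Δ1, leu2Δ0, met15Δ0, ura3Δ0 and lys2Δ0 alleles, which both groups share. The temperature at which the control cells were held during the digestion is not stated, so the enzyme and a step to 37 °C cannot be told apart. No label says that the replicates were separate cultures, and the p-values then measure only the spread between these samples, which may be technical.

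RNA polymerase I transcribes the large ribosomal RNA precursor, polymerase II the messenger RNAs and polymerase III the transfer RNAs and other short RNAs. Each enzyme is built round a catalytic pair of very large subunits held on a platform of small ones, with a protruding stalk that meets the new RNA and a small zinc-binding subunit that helps to cut back stalled transcripts. Polymerases I and III also carry built-in relatives of the polymerase II factor TFIIF, and polymerase III carries relatives of TFIIE. In yeast, the genes of polymerases I and III are well known to follow growth conditions together with the genes of ribosome assembly.

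All values are MAS5 signals in intensity units, and log2 fold changes are of signal, zymolyase minus control, ± the standard error of the limma fit. Because each array was scaled to a common mean, the values say nothing of how much messenger RNA a cell held in all. Arrays of the same group correlated at 0.985 to 0.987 on the log2 scale and arrays of different groups at 0.938 to 0.947. Probe sets for a second species, a measure of cross-hybridisation, had a 99th percentile of 21.0 to 31.4 per array, and the dimmest subunit signal was 6.12 times that of its array. Several markers went against the strain label on all arrays. URA3, labelled as deleted, gave 1783 ± 124 with zymolyase and 1802 ± 66.8 in the control (SD, n = 3 each), and LEU2, also labelled as deleted, gave 813 ± 57.9 with zymolyase and 671 ± 38.5 in the control. HIS3, whose labelled allele lacks only an internal part, gave 1129 ± 10.9 with zymolyase and 905 ± 75.8 in the control and checks nothing. STE3 and MF(ALPHA)1, which only α cells express strongly, were bright, at 2732 ± 28.1 and 13569 ± 1445 with zymolyase and 3035 ± 89.7 and 13248 ± 1346 in the control, while the a-cell genes STE2 and MFA1 gave 34.9 ± 7.36 and 20.1 ± 4.71 with zymolyase and 48.4 ± 11.1 and 32.8 ± 6.94 in the control. HO and RME1, which a/α diploids repress, gave 1033 ± 101 and 1836 ± 42.7 with zymolyase and 1214 ± 65.2 and 2049 ± 152 in the control.

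Polymerase subunit genes were lower more often than higher after zymolyase, with a few large exceptions. Of the 31 genes, 8 rose, 18 fell and 5 did not pass the test at an adjusted p of 0.05. Over all 5394 probe sets, 32.6% rose and 38.9% fell, so the members' rises were near that share and their falls above it. The median log2 fold change was -0.37 for the 31 genes and -0.08 for all probe sets. Signals of the 3 zymolyase arrays lay wholly above those of the 3 control arrays for 7 subunit genes and wholly below them for 18, against 33.4% and 39.9% of all probe sets. Changes of at least 2-fold were found upward for 2 genes, RPO21 and RPA14, and downward for 2, RPB9 and RPC11, against 8.06% and 2.21% of all probe sets. The genes had been chosen with earlier results of these arrays known, the rise of RPO21 among them, so these counts describe the family and are not independent evidence about it.

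**Figure D1:**
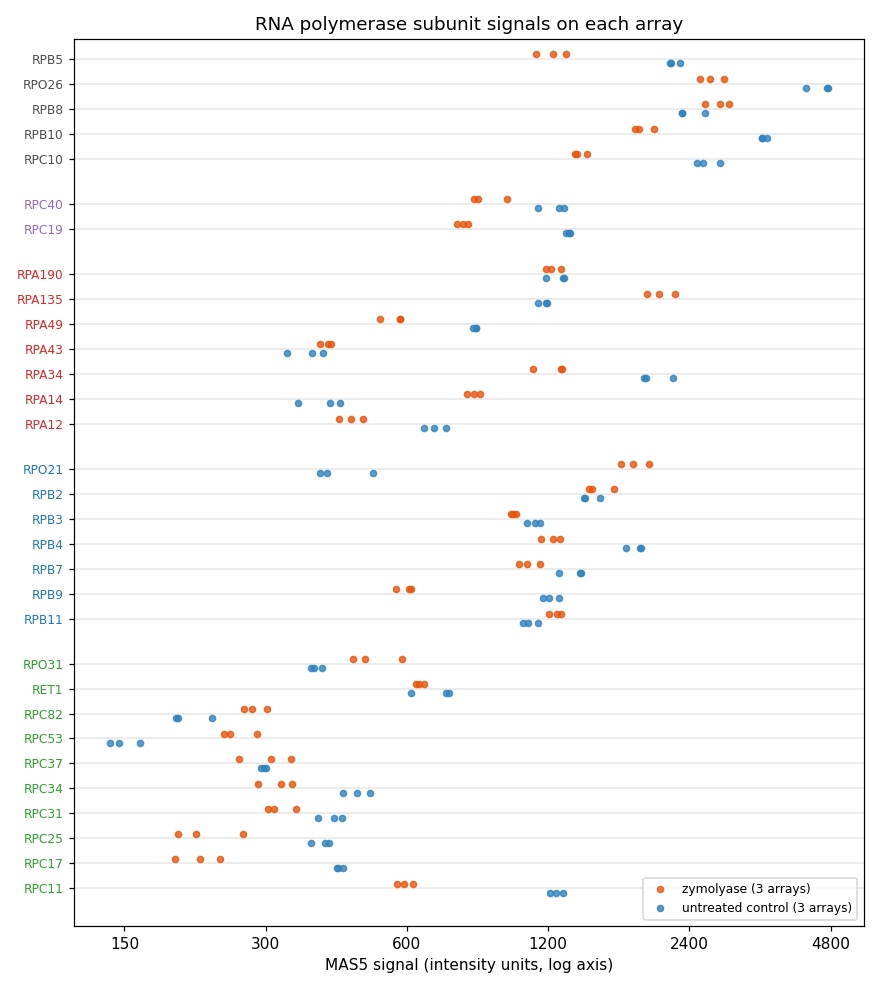
MAS5 signal (log axis) of the 31 subunit genes, with 3 zymolyase arrays drawn above 3 control arrays for each gene; gene names are coloured by enzyme, from the shared subunits at the top to polymerase III at the bottom. RPO21 and RPA14 stand to the right of their controls by over 2-fold, and RPB9 and RPC11 to the left.

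The catalytic subunits did not move as pairs. Largest subunits form the part of the active site that holds the catalytic metal, and second-largest subunits form the opposite wall of the cleft. RPO21 (YDL140C), the largest subunit of polymerase II, whose tail of repeated heptads is the platform for RNA processing factors, gave 1965, 1717 and 1820 with zymolyase, against 391, 508 and 405 in the control. Every treated array was more than 3 times as bright as any control array (log2 fold change 2.08 ± 0.09, adjusted p = 1.5e-09). It ranked 23 of 5394 probe sets by log2 fold change and first among the 188 probe sets of genes of at least 4000 nt. Its partner RPB2 (YOR151C) gave 1465, 1655 and 1486 with zymolyase, against 1545, 1430 and 1437 in the control. These ranges overlapped, and the log2 fold change was 0.06 ± 0.06 (95% interval -0.08 to 0.20, adjusted p = 0.40).

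In polymerase I it was the second-largest subunit that differed. RPA135 (YPR010C) gave 2071, 2231 and 1951 with zymolyase, against 1191, 1189 and 1142 in the control, and every treated array lay above every control array (log2 fold change 0.83 ± 0.06, adjusted p = 8.7e-08). RPA190 (YOR341W), the largest subunit, gave 1215, 1186 and 1278 with zymolyase, against 1187, 1294 and 1289 in the control. The groups overlapped there, with a log2 fold change of -0.03 ± 0.06 (95% interval -0.16 to 0.10, adjusted p = 0.62). In polymerase III the largest subunit RPO31 (YOR116C) gave 587, 490 and 461 with zymolyase, against 380, 375 and 396 in the control. Its treated arrays were all above the control arrays but spread widely (log2 fold change 0.41 ± 0.09, adjusted p = 0.0014). RET1 (YOR207C), the second-largest subunit, gave 628, 653 and 636 with zymolyase, against 738, 728 and 612 in the control, where the third control array lay below every treated one. Its log2 fold change was -0.11 ± 0.08 (95% interval -0.28 to 0.06, adjusted p = 0.22), and without control replicate 3 it was -0.20 and passed the test (adjusted p = 0.030). Of the 6 catalytic genes, 3 rose and 0 fell, against 32.6% and 38.9% of all probe sets and 68.6% and 5.32% of those of genes of at least 4000 nt. With the length trend removed, 2 of the 6 were higher and 3 lower relative to genes of like length. Over all probe sets 28.8% were then higher and 40.1% lower.

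Shared subunits were mostly lower. Each is made from 1 gene and built into several polymerases. RPB5 (YBR154C), which forms part of the jaw that grips the DNA ahead, gave 1312, 1227 and 1128 with zymolyase, against 2293, 2189 and 2180 in the control (log2 fold change -0.86 ± 0.06, adjusted p = 8.2e-08). RPO26 (YPR187W), a subunit that holds the largest subunit in its assembled form, gave 2527, 2653 and 2848 with zymolyase, against 4712, 4254 and 4727 in the control (-0.77 ± 0.06, adjusted p = 1.9e-07). In both genes the treated arrays lay far below all control arrays. The small zinc-binding subunits RPB10 (YOR210W) and RPC10 (YHR143W-A), which help to join the platform to the catalytic core, both fell without overlap. RPB10 gave 1836, 1874 and 2014 with zymolyase, against 3510, 3428 and 3429 in the control (-0.86 ± 0.05, adjusted p = 2.2e-08), and RPC10 gave 1367, 1385 and 1450 with zymolyase, against 2487, 2559 and 2792 in the control (-0.90 ± 0.06, adjusted p = 3.1e-08).

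RPB8 (YOR224C) was the exception among the 5 subunits of all 3 enzymes. It gave 2911, 2785 and 2584 with zymolyase, against 2315, 2590 and 2311 in the control. The lowest treated array fell just under the highest control array, and the small rise passed the test (log2 fold change 0.20 ± 0.06, adjusted p = 0.013). The call was not kept without control replicate 1 or 3, without zymolyase replicate 1 or when the spread model held no intensity trend, where the adjusted p was 0.053 to 0.060. The 2 subunits that polymerases I and III share, RPC40 (YPR110C) and RPC19 (YNL113W), form the platform on which those enzymes assemble. RPC40 gave 980, 835 and 852 with zymolyase, against 1143, 1266 and 1296 in the control (-0.48 ± 0.07, adjusted p = 8.3e-05). RPC19 gave 766, 809 and 789 with zymolyase, against 1338, 1308 and 1327 in the control (-0.75 ± 0.06, adjusted p = 1.0e-07). Neither gene's groups overlapped, and together 1 of the 7 shared subunits rose and 6 fell, with and without the length trend removed. Over all probe sets 32.6% rose and 38.9% fell, and over those of genes under 500 nt, as 4 of the 7 are, 14.4% rose and 58.6% fell. With the length trend removed, 28.8% of all probe sets were higher and 40.1% lower.

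The platform pair of polymerase II changed little and in opposite directions. RPB3 (YIL021W), the counterpart of RPC40, gave 1011, 998 and 1024 with zymolyase, against 1155, 1082 and 1125 in the control. All treated arrays were below the control arrays by a small margin (log2 fold change -0.15 ± 0.06, adjusted p = 0.031), and the call was lost without any of 4 arrays taken singly (adjusted p = 0.066 to 0.087). RPB11 (YOL005C), the counterpart of RPC19, gave 1203, 1279 and 1253 with zymolyase, against 1063, 1143 and 1087 in the control. Here the treated arrays were all above the control arrays (0.18 ± 0.06, adjusted p = 0.012), although the adjusted p was 0.051 without zymolyase replicate 2 and 0.065 with median centring.

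Among the 6 stalk genes, 1 rose, 4 fell and 1 did not pass, against 32.6% higher and 38.9% lower over all probe sets. The stalk genes are short, at 414 to 981 nt. Of probe sets of genes under 500 nt, 14.4% rose and 58.6% fell, and of those of 500 to 999 nt, 18.0% rose and 62.1% fell. With the length trend removed, 2 were higher and 3 lower, against 28.8% and 40.1% of all probe sets, and RPB7 no longer passed. RPB4 (YJL140W) and RPB7 (YDR404C), a heterodimer that can leave polymerase II and follows messenger RNA out of the nucleus in yeast, both fell. RPB4 gave 1156, 1228 and 1273 with zymolyase, against 1762, 1885 and 1892 in the control (log2 fold change -0.60 ± 0.06, adjusted p = 1.2e-06). RPB7 gave 1037, 1153 and 1079 with zymolyase, against 1266, 1403 and 1406 in the control (-0.32 ± 0.06, adjusted p = 0.00068). Both were separated from their controls, RPB7 by the smaller gap. The polymerase III stalk genes were among the dimmest subunits. RPC25 (YKL144C) gave 213, 196 and 268 with zymolyase, against 409, 374 and 401 in the control (-0.82 ± 0.11, adjusted p = 2.8e-05). RPC17 (YJL011C) gave 192, 217 and 240 with zymolyase, against 438, 426 and 428 in the control (-0.999 ± 0.096, adjusted p = 1.0e-06). All treated arrays of both genes lay well below the controls.

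The polymerase I stalk stood apart from the other two. RPA14 (YDR156W), the smaller stalk subunit, gave 806, 836 and 858 with zymolyase, against 351, 432 and 412 in the control. The treated arrays agreed closely and were all above the control arrays (log2 fold change 1.07 ± 0.08, adjusted p = 1.4e-07). RPA14 had the second largest rise of the family although its coding length is only 414 nt. In the RefSeq annotation it overlaps the open reading frame YDR157W, for which no named probe set was used here. RPA43 (YOR340C), its partner and the contact for the initiation factor Rrn3, gave 408, 392 and 414 with zymolyase, against 333, 397 and 376 in the control. The groups overlapped by 1 control array, and the log2 fold change was 0.14 ± 0.08 (95% interval -0.05 to 0.32, adjusted p = 0.16). RPA43 and RPA190 are neighbouring genes in the annotation, and neither passed the test.

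The 3 subunits with a role in cleaving stalled RNA, all related to the factor TFIIS, were lower. Over all probe sets 38.9% fell, and over those of genes under 500 nt, as all 3 are, 58.6% fell. RPC11 (YDR045C) of polymerase III, which also takes part in termination, gave 619, 592 and 571 with zymolyase, against 1249, 1212 and 1291 in the control. RPB9 (YGL070C) of polymerase II, which is known for its part in transcriptional fidelity, gave 568, 606 and 613 with zymolyase, against 1266, 1170 and 1205 in the control. Neither overlapped with its controls, and the means of both were near 0.5 of the control, with log2 fold changes of -1.07 ± 0.06 (adjusted p = 1.1e-08) for RPC11 and -1.03 ± 0.06 (adjusted p = 1.9e-08) for RPB9. RPA12 (YJR063W) of polymerase I gave 456, 431 and 485 with zymolyase, against 652, 728 and 685 in the control. It was also below its controls on every array, by less (-0.59 ± 0.07, adjusted p = 1.1e-05). With the length trend removed all 3 still passed as falls, RPA12 at -0.28 (adjusted p = 0.0036), against 40.1% of all probe sets.

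Relatives of TFIIF and TFIIE went both ways. In polymerase I, RPA49 (YNL248C) gave 580, 524 and 579 with zymolyase, against 829, 840 and 841 in the control (log2 fold change -0.58 ± 0.07, adjusted p = 4.8e-06). Its partner RPA34 (YJL148W) gave 1112, 1275 and 1283 with zymolyase, against 1917, 2213 and 1935 in the control (-0.72 ± 0.07, adjusted p = 1.7e-06). Both members of this heterodimer, which aids elongation, were lower without overlap. In polymerase III, RPC53 (YDL150W) gave 245, 251 and 288 with zymolyase, against 162, 140 and 146 in the control, a separate and higher set (0.81 ± 0.11, adjusted p = 2.7e-05). Its partner RPC37 (YKR025W), which acts with it in termination, gave 308, 263 and 339 with zymolyase, against 293, 297 and 301 in the control. The treated arrays of RPC37 lay on both sides of its controls (0.02 ± 0.10, 95% interval -0.20 to 0.24, adjusted p = 0.85).

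The 3 TFIIE-related subunits of polymerase III form a subcomplex needed to start transcription. RPC82 (YPR190C) gave 270, 280 and 301 with zymolyase, against 230, 195 and 193 in the control (log2 fold change 0.47 ± 0.10, adjusted p = 0.0013). RPC34 (YNR003C), which contacts the initiation factor Brf1, gave 324, 289 and 341 with zymolyase, against 500, 439 and 470 in the control (-0.56 ± 0.09, adjusted p = 8.0e-05). RPC31 (YNL151C) gave 348, 312 and 303 with zymolyase, against 419, 437 and 387 in the control (-0.37 ± 0.09, adjusted p = 0.0019). The treated arrays of RPC82 lay above its controls and those of the other two below theirs. With the length trend removed, RPC34 alone of the 3 passed (-0.45, adjusted p = 0.00057).

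**Figure D2:**
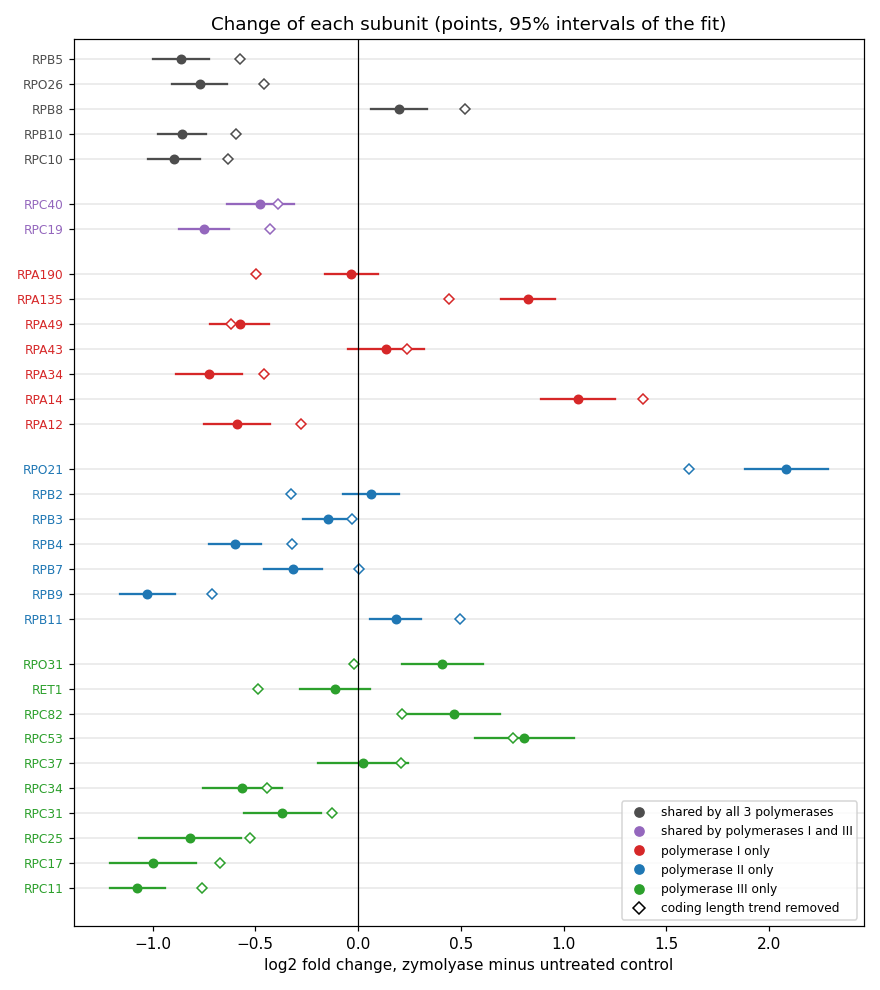
Log2 fold change of signal, zymolyase minus control, for each subunit gene. Filled points are the limma estimates with 95% intervals as lines, and open diamonds the estimates after a trend with coding length was removed; RPO21 stays the highest under both, at 2.08 and 1.61.

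By enzyme, the medians of the log2 fold changes were -0.86 for the 5 subunits of all 3 enzymes and -0.61 for the 2 of polymerases I and III. They were -0.03 for the 7 genes of polymerase I alone (2 rose, 3 fell), -0.15 for the 7 of polymerase II alone (2 rose, 4 fell) and -0.24 for the 10 of polymerase III alone (3 rose, 5 fell). Over all probe sets 32.6% rose and 38.9% fell, and with so few genes these counts show nothing particular to an enzyme. Each enzyme's own genes thus spread widely, with ranges of log2 fold change of -0.72 to 1.07 in polymerase I, -1.03 to 2.08 in polymerase II and -1.07 to 0.81 in polymerase III. The 7 shared subunits had a median of -0.77 and the 24 specific ones of -0.13, a difference of -0.64. Per array, that difference against the control mean was -0.65, -0.61 and -0.62 with zymolyase and within -0.03 to 0.02 in the control. With the 6 catalytic genes left out of the specific ones, their median was -0.47 and the difference -0.30.

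Large subunits were higher relative to small ones. The 6 catalytic subunits had a median log2 fold change of 0.24, with 3 higher and 0 lower, and the other 25 had a median of -0.58, with 5 higher and 18 lower, so that the medians differed by 0.81. On the 3 zymolyase arrays this difference against the control mean was 0.84, 0.92 and 0.68, and on the control arrays it was -0.04 to 0.04. The same direction ran through the whole array. Probe sets of genes of under 500 nt had a median log2 fold change of -0.38 (14.4% rose, 58.6% fell), and those of at least 4000 nt one of 0.45 (68.6% rose, 5.32% fell). Across genes, Pearson's r of log2 fold change with log2 coding length was 0.60 for the 31 subunits and 0.34 for all 5394 probe sets. Spearman's rho was 0.61 and 0.41. For the 25 subunits other than the catalytic ones, r was 0.40 and rho 0.495. These are descriptions, since genes are not independent replicates and share the same 6 arrays.

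Ratios of 3′ to 5′ control probe sets, an indirect sign of RNA integrity, were on average higher with zymolyase too. For ACT1, the signal of the 3′ control probe set over that of the 5′ one, which grows when RNA is shortened, was 2.44 ± 0.11 with zymolyase and 2.04 ± 0.16 in the control (SD, n = 3 each; two-sided exact permutation test, p = 0.1, the smallest 3 against 3 arrays allow). All 5 sets of such control probes, which cover 4 genes since ACT1 has a second set under its locus name YFL039C, had a higher mean ratio with zymolyase, by 0.25 to 0.44 on the log2 scale. The groups overlapped for WBP1 (exact p = 0.3) and were separate for the others (exact p = 0.1 each). The part of RNA integrity or of the length trend in the subunits' changes was not tested.

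**Figure D3:**
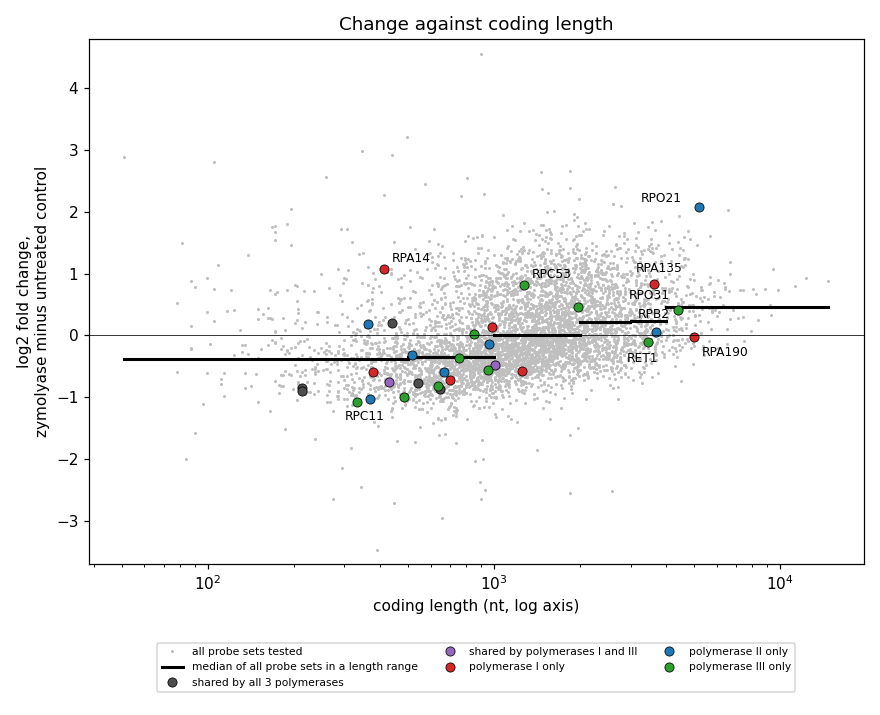
Log2 fold change, zymolyase minus control, against coding length (log axis) for all 5394 probe sets in grey and the 31 subunit genes in colour, with the median of all probe sets in 6 ranges of length as black bars. The bars climb from -0.38 for the shortest range to 0.45 for the longest; RPO21 and RPA14 stand above the bars of their ranges, and RPB9 and RPC11 below.

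The subunits were also set beside all probe sets of the same range of length. The 10 subunit genes of under 500 nt had a median log2 fold change of -0.80, against -0.38 for all 613 probe sets of that length, and the 11 of 500 to 999 nt had -0.56, against -0.36 for 1428. The 4 of 1000 nt to under 2000 nt had -0.0051, against -0.0026 for 2125 probe sets, but this median lies between 2 rises and 2 falls. The 3 of 3000 to 3999 nt (RPA135, RPB2 and RET1) had 0.06, against 0.24 for 274 probe sets, and the 3 of at least 4000 nt (RPO21, RPA190 and RPO31) had 0.41, against 0.45 for 188. A local regression on coding length was then removed from every array. Relative to genes of like length, 7 subunit genes were higher and 18 lower, against 28.8% and 40.1% of all probe sets. Of the 8 rises 6 remained and of the 18 falls 15 did. The median difference of large minus small subunits was then 0.22 instead of 0.81, and that of shared minus specific subunits -0.26 instead of -0.64.

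With the length trend removed, the catalytic subunits had lower log2 fold changes. RPO21 (1.61, adjusted p = 1.8e-08) and RPA135 (0.44, adjusted p = 4.2e-05) were still higher, and RPO31 had -0.02 (adjusted p = 0.86). RPA190 (-0.50, adjusted p = 1.2e-05), RPB2 (-0.33, adjusted p = 0.00067) and RET1 (-0.49, adjusted p = 0.00011) passed as lower relative to genes of like length. Without the removal, the signals of RPA190, RPB2 and RET1 overlapped between the groups and did not pass. RPA14 rose by 1.39, RPB8 by 0.52 and RPB11 by 0.50, all more than in the fit without the removal. RPA43 passed as higher relative to genes of like length, at 0.24 (adjusted p = 0.023). RPB3 (-0.03, adjusted p = 0.63), RPB7 (0.0025, adjusted p = 0.97), RPC31 (-0.13, adjusted p = 0.20) and RPC82 (0.21, adjusted p = 0.078) no longer passed. RPC11 (-0.76), RPB9 (-0.71), RPC17 (-0.67), RPC10 (-0.63) and RPA49 (-0.62) had the largest remaining falls.

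Subunits that bind each other directly were also set against each other. For 10 such pairs, chosen after the data were seen, the log2 ratio of their signals was taken on every array, and in 8 the ranges of the groups did not overlap. As single probe sets already separate the groups in 33.4% (higher) and 39.9% (lower) of cases, this count is a description and nothing particular to partner subunits. The ratio of RPO21 to RPB2 was higher by 2.02, with zymolyase arrays at 1.82 to 2.19 and control arrays at -0.21 to 0.27 around the control mean. That of RPA190 to RPA135 was lower, at -0.86, that of RPA43 to RPA14 at -0.93, and that of RPB3 to RPB11 at -0.33. Ratios of RPC53 to RPC37 (0.79), RPO31 to RET1 (0.52), RPB7 to RPB4 (0.28) and RPC40 to RPC19 (0.27) were higher. In all 8 the two-sided exact permutation test gave p = 0.1, the smallest this design allows, and 0.125 after adjustment over the 10 pairs. Ratios of RPC25 to RPC17 (0.18, exact p = 0.3) and RPA49 to RPA34 (0.15, exact p = 0.4) overlapped between the groups.

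**Figure D4:**
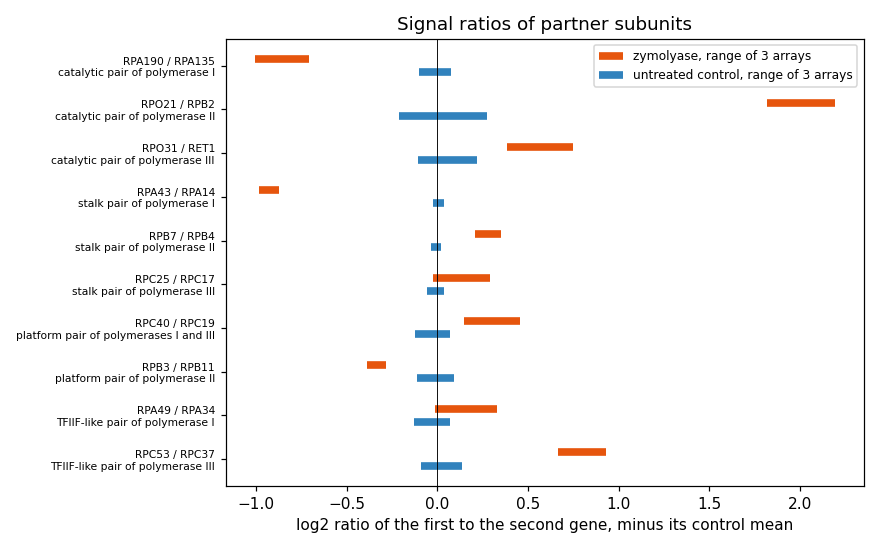
Range over 3 arrays of the log2 signal ratio of partner subunits, relative to the mean of the control arrays, with zymolyase drawn above the control for each pair. RPO21 over RPB2 lies furthest from its control range, at 1.82 to 2.19, and the ranges overlap only for RPC25 over RPC17 and RPA49 over RPA34.

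Other genes of the 3 transcription systems were measured beside the subunits. Of 55 listed initiation, elongation and assembly factors, all of which were measured, 10 rose, 30 fell and 15 did not pass, against 32.6% higher and 38.9% lower over all probe sets, and the median log2 fold change was -0.28. With the length trend removed, 11 were higher and 33 lower (median -0.33), against 28.8% and 40.1% of all probe sets. Of the 8 polymerase I initiation factors, 1 rose and 5 fell (median -0.51). RRN9, a subunit of the upstream activating factor, gave 296 ± 13.2 with zymolyase and 545 ± 11.9 in the control (log2 fold change -0.88 ± 0.08, adjusted p = 3.4e-07), and RRN11, of the core factor, gave 112 ± 7.04 with zymolyase and 205 ± 13.7 in the control (-0.88 ± 0.12, adjusted p = 2.4e-05). Of the 19 general initiation factors of polymerase II, 2 rose and 13 fell (median -0.38). Their largest changes were those of TFB5, the smallest TFIIH subunit (485 ± 54.6 with zymolyase, 929 ± 28.1 in the control, -0.94 ± 0.08, adjusted p = 4.1e-07), and TOA2, a TFIIA subunit (808 ± 37.2 with zymolyase, 1474 ± 29.2 in the control, -0.87 ± 0.06, adjusted p = 4.1e-08). Both genes are short, at 219 and 369 nt. With the length trend removed, TFB5 was at -0.67 and TOA2 at -0.55, and the lowest of the list were TFB1 and TFB4, at -0.75 each.

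Of the 12 factors that act on elongating polymerase II, 4 rose and 4 fell (median 0.05), shares near the 32.6% and 38.9% of all probe sets. FCP1, a phosphatase of the heptad tail of RPO21, gave 344 ± 65.0 with zymolyase and 121 ± 21.0 in the control (log2 fold change 1.501 ± 0.155, adjusted p = 2.0e-06). The elongation factor gene SPT5 gave 466 ± 101 with zymolyase and 172 ± 18.6 in the control (1.43 ± 0.14, adjusted p = 1.0e-06). SPT4, whose short product binds Spt5, fell (-0.81 ± 0.05, adjusted p = 4.1e-08). The other falls of this list were RTR1 (-0.83 ± 0.11, adjusted p = 2.5e-05), CTK2 (-0.64 ± 0.10, adjusted p = 6.9e-05) and SSU72 (-0.64 ± 0.06, adjusted p = 1.1e-06). Of the 9 initiation factor and repressor genes of polymerase III, 2 rose and 3 fell (median -0.11). With the length trend removed, 2 were higher and 6 lower (median -0.37), against 28.8% and 40.1% of all probe sets. TFC1, a TFIIIC subunit, gave 563 ± 9.03 with zymolyase and 377 ± 23.6 in the control (0.58 ± 0.07, adjusted p = 1.3e-05), and MAF1, the repressor of polymerase III, gave 611 ± 33.7 with zymolyase and 832 ± 59.5 in the control (-0.44 ± 0.07, adjusted p = 0.00011). Of the 7 assembly and import factors, 1 rose and 5 fell (median -0.42), with BUD27, a prefoldin-like assembly factor, at 265 ± 5.08 with zymolyase and 142 ± 25.9 in the control (0.91 ± 0.13, adjusted p = 3.4e-05) and GPN2, a GTPase needed for nuclear import of the polymerases, at 484 ± 3.53 with zymolyase and 778 ± 14.8 in the control (-0.68 ± 0.06, adjusted p = 6.5e-07).

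**Figure D5:**
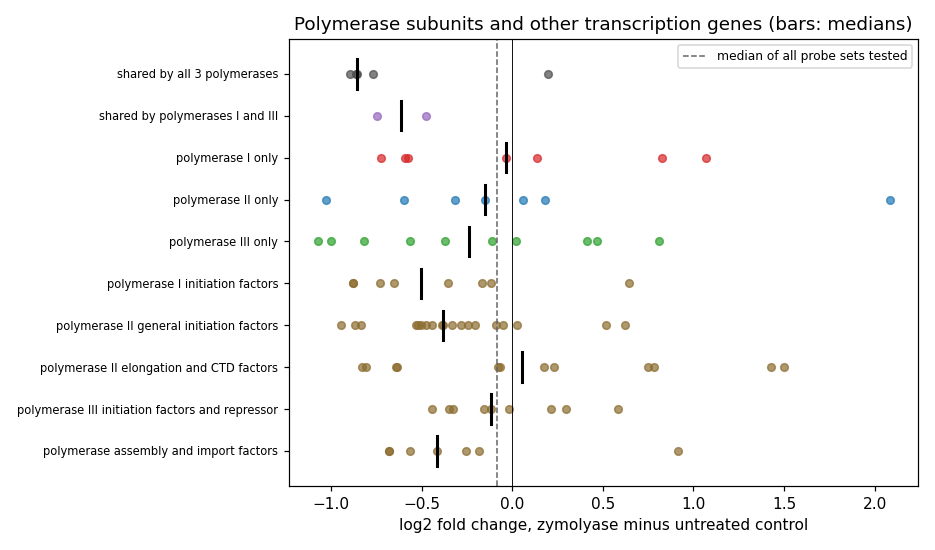
Log2 fold change, zymolyase minus control, of each gene (points) in the 5 subunit classes and 5 lists of other transcription genes, with each list's median as a black bar and the median of all probe sets, -0.08, as a dashed line. The subunits of all 3 enzymes lie lowest by median, at -0.86, with RPB8 alone to the right of 0.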

How the data were processed

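RNA of 3 zymolyase-treated and 3 untreated samples was labelled from about 500 ng of total RNA by a 3′-primed in vitro transcription kit, per the labels' protocols. The authors deposited a linear signal intensity for each probe set, made with MAS5 according to the submitters' processing notes, with no version given. Trimmed by 2% at either end, the mean signal lay between 500.41 and 500.43 on all 6 arrays, and this scaling was kept. Groups come from the sample titles.

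Of 10928 probe sets, 5498 had 1 S. cerevisiae gene by the annotation of the platform and RefSeq's gene table (assembly R64). The 1747 whose gene is absent from that table were taken as a second species. Probe sets were kept above the 90th percentile of that species' means, a signal of 10.1, which left 5394. The log2 signals entered a limma fit (version 3.58.1, R 4.3.3; intensity trend, Benjamini-Hochberg over the 5394, threshold 0.05). Lengths are those of the RefSeq gene table, with any introns included, and are called coding lengths here. Of those tested, 96.8% are multiples of 3. The length trend was taken out array by array as a loess curve (span 0.5, degree 1) on log2 length.

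All 31 subunits are named. Of each of the 5 other lists, the 2 genes with the largest absolute log2 fold change are named. SPT4, RTR1, CTK2, SSU72, TFB1 and TFB4 were added after their values were seen. The members, lists and alternatives were chosen with earlier results of these data known. The 10 pairs were chosen after seeing the data. Deviations of same-numbered arrays of the groups correlated at 0.016 to 0.066 over probe sets, against -0.093 to 0.066 for all pairs across groups. Of the 3 zymolyase arrays, 2 correlated best with the control array of their own number. As these correlations were small, replicate numbers were not treated as pairs in the main fit, and a replicate block was run as an alternative. Sequences and promoter motifs were not used here. The number of arrays limits the precision.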

Additional observations from a re-analysis of the deposited data

How the results depend on the processing

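The 15 alternatives common to every result were an offset, quantile normalization, median centring, a looser and a stricter filter, a spread model with no intensity trend, a replicate block, the length trend removed, probe sets of several transcripts left out, and each of the 6 arrays left out. The counts of all probe sets and of members called stayed within 1.5 times their values under each. With the replicate block, 8 members rose and 18 fell, and no member's call changed. Of the 31 members, 26 kept direction and side of the threshold under all 14 alternatives other than the length removal, which changed 9 (given with the comparisons). RPC37, which never passed, was at -0.023 with median centring and at -0.061 (without zymolyase replicate 3) to 0.12 without single arrays, and RPB7, RPB2 and RPO31 were at 0.0025, -0.33 and -0.019 with the length trend removed.

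The members' median of -0.37 was -0.32 with an offset of 50, -0.42 with median centring, -0.33 with the length trend removed and -0.43 to -0.33 without single arrays. Large minus small subunits was 0.22 with the length trend removed, 0.75 to 0.90 without single arrays and 0.84 when large meant a coding length of at least 1000 nt. Shared minus specific subunits was -0.26 with the length trend removed, -0.70 to -0.58 without single arrays and -0.62 when only the 5 subunits of all 3 enzymes counted as shared. With the length trend removed, the class medians were -0.58 (all 3 enzymes), -0.41 (I and III), -0.28 (I) and -0.032 (II). With median centring they were -0.90, -0.66 and -0.19 for all 3 enzymes, I and III, and II. Without single arrays they were -0.86 to -0.82 (all 3), -0.64 to -0.59 (I and III), -0.07 to -0.01 (I), -0.17 to -0.13 (II) and -0.31 to -0.20 (III). Averaging the probe sets of a gene was not run, since each member has 1.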
